A study of Homo sapiens with 45 samples.

Results

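The single array of A375 cells transfected with siRNA against PCNA was examined here, 1 of the 45 arrays of the series. A375 is an established human melanoma line, and all 45 cultures were of these cells. The study's methods give DMEM with foetal calf serum for their culture and opti-MEM at transfection. The array was compared with the 8 other arrays that the study places in the same experimental batch (KD1), which carry RNA from cells given siRNA against CDC2, CDC25B, CDK7, CTNNB1, FOXO3A, HSF2, RB1 or TCEA1. The remaining arrays are 30 further targeting siRNAs in batches KD2 (23 arrays) and KD3 (7 arrays), 3 cultures with control siRNA and 3 untreated cultures, for which no batch is given. RNA was harvested 48 h after transfection. The labels give 100 nM siRNA and the study's methods a lower concentration. Each siRNA was used in 1 culture with 1 array, so the difference between the PCNA siRNA array and its reference has no replicate check, and only the spread among the 8 other KD1 arrays is available as error. These 8 are knockdowns of other genes and not untreated cells. mRNA was measured and protein was not.

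PCNA encodes the sliding clamp, a ring-shaped trimer that encircles DNA and holds the replicative polymerases on their template. The ring is opened and closed around primed DNA by clamp loaders, the RFC complexes, ahead of which the MCM-GINS helicase unwinds the duplex. Once loaded, PCNA also recruits flap endonuclease, chromatin assembly, repair and ubiquitin ligase factors, among them the ligase CRL4 with its substrate receptor CDT2, the product of DTL. Many genes of this machinery are transcribed at the G1/S transition under E2F factors, whereas genes of mitosis peak later and commonly carry a CHR element near their start.

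PCNA mRNA itself stood at a log2 intensity of 10.77 in the PCNA siRNA array. In the 8 other KD1 arrays it lay between 11.94 (FOXO3A siRNA) and 12.45, with a median of 12.11 (SD 0.16, n = 8). The array was thus below all 8, by -1.34 on the log2 scale, or 2.53-fold, with 39.5% of the reference signal left, and the difference was 8.18 times the SD of the 8. The PCNA siRNA array was the lowest of 9, for which a one-sided exact rank test gives p = 0.111, the smallest value that 9 arrays allow. With each of the 39 targeting siRNA arrays set against the rest of its own batch, it was also the lowest (one-sided exact rank test, p = 0.0256), ahead of MCM2 siRNA at -0.88. The study chose siRNAs that could lower the mRNA of their target, so this rank was favoured by the selection, and both p-values are a check of the label rather than independent evidence.

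In the values as deposited, however, 4 arrays of batch KD3 held less PCNA mRNA than the culture in which it was targeted. The 7 KD3 arrays spanned 9.83 (MCM2 siRNA) to 10.89, with a median of 10.64, while the 23 KD2 arrays spanned 11.85 to 12.47. Control siRNA arrays 1 to 3 were at 12.09, 12.23 and 10.79, and untreated arrays 1 to 3 at 12.09, 12.40 and 10.80, so that array 3 of either group was close to the PCNA siRNA array and the others were not. Control siRNA array 3 and untreated array 3 were near copies of each other, since 100% of the probe sets of the latter lay within 10% of the former, against at most 62.0% in any other pair. The median of KD3 thus lay as far below that of KD1 as the PCNA siRNA array did, and all values below are relative to the KD1 arrays unless another reference is named.

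**Figure D1:**
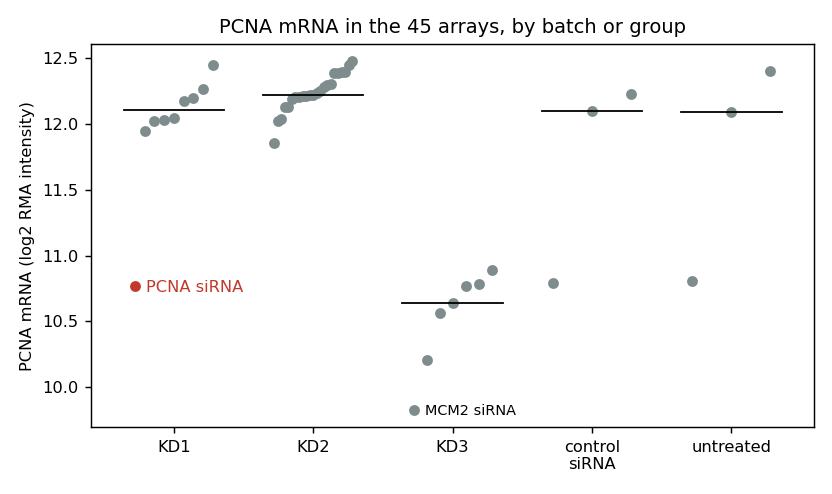
PCNA mRNA (y axis, log2 RMA intensity) in each of the 45 arrays, by batch for the targeting siRNAs and by group for the control siRNA and untreated arrays. Each point is 1 array, the PCNA siRNA array is red, and black lines are medians of the other arrays of a group. The PCNA siRNA array (10.77) lies below the 8 other KD1 arrays (11.94 to 12.45) and among the KD3 arrays (9.83 to 10.89).

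The PCNA siRNA array otherwise resembled its batch. Over the probe sets above noise, its mean absolute log2 difference was 0.15 from the KD1 median, 0.31 from the KD2 median and 0.50 from the KD3 median, within or next to the ranges of the 8 others (0.11 to 0.16, 0.24 to 0.31 and 0.46 to 0.51). The 3' to 5' log2 ratios of the control probe sets for actin (1.16) and GAPDH (0.07) lay within those of the 8 others (1.01 to 1.76 and 0.04 to 0.14). A gene counted as above noise where its median over the 45 arrays reached 1.5 times the median signal of BioB-3, a spiked-in bacterial control, and 4800 of 19775 genes were. Of 15 measured genes of the melanocyte lineage, only SOX10, MITF, EDNRB and GPNMB were above noise, and the pigment genes TYR, TYRP1, PMEL and MLANA were not (PCNA siRNA array 5.71, 3.06, 5.44 and 3.98). All 10 leukocyte, 6 fibroblast and 6 endothelial markers were below noise by this rule. The summed intensity of the 6 keratinocyte markers, nearly all from KRT10, was 2874 against 2230 to 2813 in the 8 others, and its part in the results was not tested.

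Few genes differed by a large factor. Of 4800 genes above noise, 4 (0.0833%) were at least 2-fold lower than the KD1 median, PCNA, PCDH9, DCUN1D4 and TGFBR2, and 1 (0.0208%) was at least 2-fold higher, CTNNB1. At 1.5-fold, 47 genes (0.979%) were lower and 11 (0.229%) higher. When each of the 8 other KD1 arrays was treated in the same way, 0 to 2 genes were 2-fold lower and none was 2-fold higher, while 6 to 18 genes were 1.5-fold lower and 1 to 31 higher, the 31 in RB1 siRNA. In all, 968 genes (20.2%) were below all 8 other arrays and 402 (8.38%) above all 8, mostly by small amounts, with a median over all genes of -0.05. The same counts in the other KD1 arrays were 255 to 802 below and 156 to 803 above. When each array was centred on its own median, this split became 627 below and 669 above. A count of list members below all 8 is therefore to be read against 20.2%, and a count of members lower than the KD1 median against 61.7%, the share over all genes (2960 of 4800).

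Among the lists with at least 5 genes above noise, those of the helicase and the clamp loaders lay farthest below the other KD1 arrays. Over 6 lists of replication genes (clamp loaders, polymerases and primase, Okazaki fragment maturation, helicase, origin licensing, and fork protection), 40 of 69 measured genes were above noise. Of these 40, 32 were lower than the KD1 median and 21 (52.5%) were below all 8 other arrays, with a median log2 difference of -0.23, while 3 were above all 8. In bulk RNA, fewer cells in S phase and less of these mRNAs per cell cannot be told apart.

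Every clamp loader above noise was lower than the KD1 median (7 of 9 measured, median -0.32), and 4 of the 7 were below all 8 other arrays. RFC3, a small subunit of the loader, was at 10.07 in the PCNA siRNA array, against 10.31, 10.52 and 10.95 (lowest, median and highest of the 8). A further probe set of RFC3 gave nearly the same difference, -0.48 beside -0.46. RFC4, another small subunit, was at 9.30 against 9.49, 9.63 and 9.98. DSCC1, part of the alternative loader that supports cohesion, was at 9.19 against 9.44, 9.58 and 9.80. The 3 arrays with control siRNA held DSCC1 at 9.58, 9.47 and 7.99, so it was lower than in control arrays 1 and 2 and higher than in array 3. RFC5 differed by -0.46 at its brightest probe set, yet by 0.20 at another probe set above noise, and its direction is not settled. The large subunit RFC1 (-0.10), RFC2 (-0.15) and CHTF8 (-0.02) lay within the range of the 8. For the loaders as a list, the same median in the 8 other arrays ran from -0.15 (TCEA1 siRNA) to 0.23 (RB1 siRNA).

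The polymerase genes above noise did not lie below the other KD1 arrays as a list. Of 12 measured genes of the replicative polymerases and primase, 5 were above noise, with a median of 0.08, and 1 was lower. Over all 12, dim genes included, 7 were lower and the median was -0.10, with POLE2 (-0.49), POLD3 (-0.29) and POLE (-0.13) below all 8. The lower gene above noise was PRIM1, the catalytic subunit of the primase that starts each new strand, at 8.92 against 9.03, 9.39 and 9.72. Small subunits went the other way, with POLD4 at 9.30 against 8.68, 9.04 and 9.21 and POLE4 higher by 0.14, both above all 8, whereas POLD2 (0.08) and POLE3 (0.02) lay within the range. Of 6 genes of Okazaki fragment maturation, 3 were above noise, and FEN1, the flap endonuclease that PCNA stimulates, was at 10.73 against 10.79, 11.00 and 11.44. RNASEH2C (-0.07) and RNASEH2A (0.04) were within the range.

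All 9 helicase genes above noise (of 12 measured) were lower than the KD1 median, 7 of them below all 8 other arrays, with a list median of -0.38 against -0.21 (TCEA1 siRNA) to 0.26 (RB1 siRNA) in the 8. MCM6, a subunit of the MCM2-7 ring, was at 10.05 against 10.49, 10.71 and 11.27. MCM10, which acts as the helicase is activated, was at 7.98 against 8.32, 8.66 and 8.83, and its other probe sets gave -0.72 and -0.79. MCM5 was at 8.68 against 8.91, 9.33 and 9.61, and a dimmer probe set of MCM5 gave -0.33, within its range. GINS2, a subunit of the GINS complex, was at 8.93 against 9.19, 9.40 and 9.72. MCM7 (-0.38), MCM2 (-0.25) and MCM3 (-0.25) were also below all 8, while GINS1 (-0.29) and MCM4 (-0.17) were not. Set against the rest of its batch, each array of the 39 was ordered by its helicase median, and PCNA siRNA was in position 3 from the lowest. In MCM5 and MCM6 the PCNA siRNA array was the lowest of the 39.

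Against single control cultures the helicase difference depended on the array. In mean absolute log2 difference, control siRNA array 1 was nearest the KD1 median (0.11). Array 2 was nearest that of KD2 (0.09) and array 3 nearest that of KD3 (0.10). Untreated arrays 1 to 3 were nearest KD1 (0.23), KD2 (0.10) and KD3 (0.12), and the batch of these cultures is not given. The median over the 9 genes was -0.39 against control siRNA array 1 (9 of 9 lower), -0.29 against array 2 (8 of 9) and 0.41 against array 3 (1 of 9). It was -0.21 and -0.50 against untreated arrays 1 and 2 (9 of 9 each) and 0.29 against untreated array 3 (1 of 9). The near-copy pair thus held less of these mRNAs than the PCNA siRNA array, and the other 4 cultures held more. The clamp loaders were lower against each of the 6, with medians from -0.36 to -0.65.

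**Figure D2:**
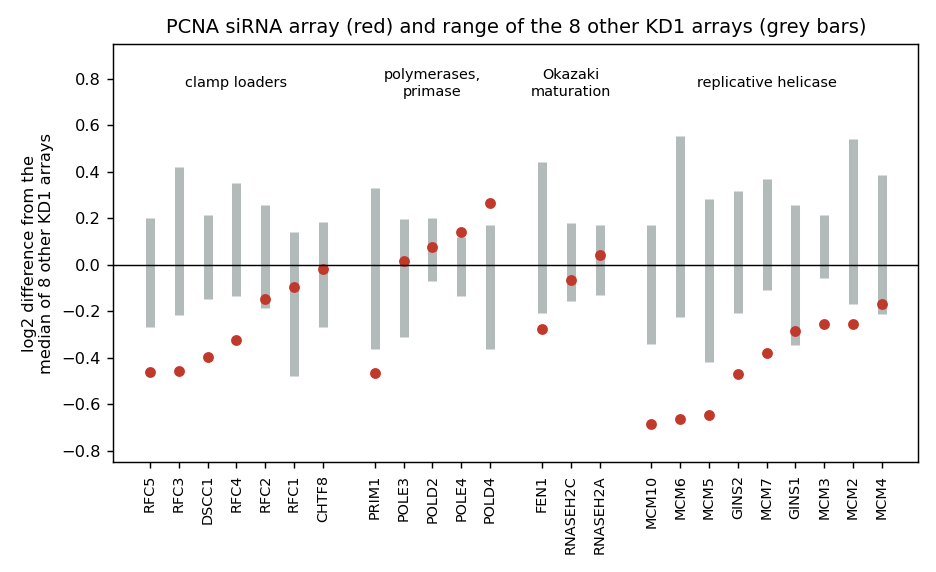
Log2 difference from the median of the 8 other KD1 arrays (y axis) for each gene above noise in 4 replication lists (x axis). Red points are the PCNA siRNA array and grey bars span the 8 other arrays. Of 7 loaders 4 and of 9 helicase genes 7 lie below the bars, and POLD4 and POLE4 lie above theirs.

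The promoters of these genes were read for words that E2F factors are known to bind, since E2F sites near the start are a shared feature that the comparison did not use. The window ran from 250 bases before to 50 after the start site in RefSeq (GRCh38.p14), and the words searched on both strands were TTTCCCGC, TTTGGCGC, TTTCGCGC and TTTGCCGC, some of whose matches overlap. Of 27305 promoters, 3.33% held at least 1 word, and of the 4097 genes above noise with a promoter in the table, 6.3%. Among the helicase genes above noise, 6 of 7 with a promoter held a word (85.7%), and among the clamp loaders 1 of 6, RFC3. Outside the helicase, 3 of 26 replication promoters held a word, among them that of POLE4, whose mRNA was above all 8. Among the 21 replication genes below all 8 arrays, 7 of the 18 with a promoter did (38.9%), and among the 19 others 2 of 15 (13.3%). The 7 were the helicase genes MCM2, MCM3, MCM6, MCM7 and GINS2, with RFC3 and TOPBP1, and the 2 were GINS1 and POLE4. This contrast is thus mostly the helicase list again, and the groups were split on the values of this array. A link between the words and the falls was not tested. Of 39 promoters of G2/M genes, 2 held an E2F word (5.13%), while 27 held the CHR word TTTGAA (69.2%, against 15.4% of all promoters). A match is a description of the letters and not evidence of binding. The promoters of MCM6, GINS2 and RFC3 are given below as members of the helicase and loader lists with a match, and that of DTL as the gene of the clamp-bound ligase described next, with the matches in capitals.
MCM6 promoter, chr2:135876394-135876693, minus strand: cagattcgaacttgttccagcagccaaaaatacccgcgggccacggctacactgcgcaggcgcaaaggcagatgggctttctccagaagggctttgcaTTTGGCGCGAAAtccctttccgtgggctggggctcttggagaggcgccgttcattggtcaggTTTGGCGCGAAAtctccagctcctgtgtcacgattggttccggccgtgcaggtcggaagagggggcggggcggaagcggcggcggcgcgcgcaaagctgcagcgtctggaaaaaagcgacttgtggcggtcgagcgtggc
GINS2 promoter, chr16:85688905-85689204, minus strand: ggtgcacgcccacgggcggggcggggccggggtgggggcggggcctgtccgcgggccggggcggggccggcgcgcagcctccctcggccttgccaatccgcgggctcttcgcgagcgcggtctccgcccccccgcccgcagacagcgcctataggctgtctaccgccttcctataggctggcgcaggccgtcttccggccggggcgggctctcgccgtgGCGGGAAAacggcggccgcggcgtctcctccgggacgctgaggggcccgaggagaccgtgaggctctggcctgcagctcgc
RFC3 promoter, chr13:33817899-33818198, plus strand: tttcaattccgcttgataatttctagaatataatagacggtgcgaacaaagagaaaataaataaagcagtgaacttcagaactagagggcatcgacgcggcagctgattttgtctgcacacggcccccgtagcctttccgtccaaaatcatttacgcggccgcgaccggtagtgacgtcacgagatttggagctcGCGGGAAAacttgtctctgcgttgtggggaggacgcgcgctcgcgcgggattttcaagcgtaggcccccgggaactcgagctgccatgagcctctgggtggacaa
DTL promoter, chr1:212035498-212035797, plus strand: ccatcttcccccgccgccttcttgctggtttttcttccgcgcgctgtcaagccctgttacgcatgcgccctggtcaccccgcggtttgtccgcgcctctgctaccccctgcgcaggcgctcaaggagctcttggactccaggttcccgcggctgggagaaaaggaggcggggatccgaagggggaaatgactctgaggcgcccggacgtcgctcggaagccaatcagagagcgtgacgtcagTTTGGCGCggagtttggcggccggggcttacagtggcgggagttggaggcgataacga
In MCM6 the 4 matches form 2 overlapping pairs, which begin at positions -152 and -90 relative to the start site, and the matches of GINS2, RFC3 and DTL begin at -31, -55 and -8. MCM10 had no match in this window.

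Among proteins that dock on PCNA, DTL showed the largest difference. DTL mRNA was at 9.03 in the PCNA siRNA array against 9.66, 9.92 and 10.30 in the 8 others, a log2 difference of -0.89 (SD of the 8, 0.19), and it was the lowest of the 39 arrays relative to its batch. Its other probe set gave -0.60 and was also below all 8 (8.96 against 9.27 to 9.77). The 3 control siRNA arrays held DTL at 9.90, 9.54 and 9.12. Of 34 measured genes for PCNA-binding proteins, 15 were above noise, 9 were lower and 5 were below all 8, with a median of -0.10. Besides DTL these were FEN1, CHAF1A, the large subunit of the chromatin assembly factor CAF-1 (8.89 against 9.07, 9.26 and 9.49), UNG, a uracil-DNA glycosylase (9.17 against 9.32, 9.52 and 10.08), and PCLAF, a clamp-associated factor (-0.24). MSH3 of mismatch repair was above all 8 (0.22).

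The other parts of the CRL4 ligase were mixed. DDB1, the adaptor, was 0.20 higher and above all 8, CUL4B was at 0.24 within the range, and RBX1 was at -0.21 and below all 8. CDKN1A, which encodes the inhibitor p21, a PCNA-binding substrate of this ligase, was at 9.69 against 9.28, 9.51 and 9.76, within the range. KMT5A, another substrate, was at 0.07. Of 19 genes of PCNA ubiquitination and translesion synthesis, 8 were above noise, with a median of -0.13 and 3 below all 8. The ubiquitin-conjugating enzyme UBE2A was at -0.32 and its near relative UBE2B at 0.23, above all 8, and USP1, which removes ubiquitin from PCNA, was at -0.31.

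Smaller differences were seen in other S-phase lists. Of 15 measured genes of origin licensing and firing, 6 were above noise, 5 were lower and 3 below all 8 (median -0.21), GMNN, ORC6 and TOPBP1. Of 15 genes of fork protection and the replication checkpoint, 10 were above noise, 8 were lower and 5 below all 8 (median -0.20). TIPIN, a fork protection factor, was at 8.47 against 8.63, 8.82 and 9.28, and RPA2, of the single-strand binding complex, was at 8.99 against 9.13, 9.27 and 9.65. RPA3, a subunit of the same complex, was instead 0.15 higher and above all 8. The median of the fork list was also -0.20 in TCEA1 siRNA. With the noise limit set at 3 times BioB, the median of the fork list was -0.02 and that of origin licensing -0.09.

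For deoxynucleotide synthesis, 10 of 12 measured genes were above noise, 9 were lower and 4 below all 8 (median -0.18). Thymidylate synthase TYMS was at 12.44 against 12.54, 12.67 and 13.00, and thymidine kinase TK1 at 9.32 against 9.42, 9.55 and 9.71. RRM2, the regulated subunit of ribonucleotide reductase, was at -0.03, within the range. Of 9 measured genes of E2F factors and G1/S cyclins, 3 were above noise, 2 were lower and 1 was below all 8. The median of this list (-0.145) lay within the range of the 8, as TCEA1 siRNA had -0.19. The gene below all 8 was CDC25A, a phosphatase that activates CDK2 complexes at G1/S, at 9.09 against 9.29, 9.55 and 9.78. It was the lowest of the 39 relative to its batch. Dimmer probe sets of CDC25A gave -0.735 and -0.13, both within their range. Of 10 genes of histone supply and chromatin assembly above noise, 8 were lower and 3 below all 8. Their median (-0.14) lay within the range of the 8, as TCEA1 siRNA had -0.16. Of 50 core and linker histone genes measured, 3 were above noise (H2AC25, H2BC12 and H1-10) and all of them lay within the range.

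The median of the genes of mitosis lay within the range of the other KD1 arrays. The G2/M list had 58 measured members, of which 48 were above noise, 27 were lower and 21 were higher, 4 were below all 8 and 2 above all 8, and the median was -0.02, against -0.15 (CDK7 siRNA) to 0.29 (RB1 siRNA) in the 8 others. The lowest was ECT2, an exchange factor of cytokinesis, at 8.14 against 8.41, 8.65 and 9.19. CCNA2, cyclin A2, was at 9.26 against 8.66, 8.91 and 9.42, in the upper part of the range. CDC25B was 0.29 higher and above all 8, of which 1 is its own knockdown (8.91). Against control siRNA arrays 1 to 3 the G2/M median was 0.02, 0.10 and -0.05, with 23, 15 and 27 of 48 genes lower. Against untreated arrays 1 to 3 it was -0.19, -0.14 and -0.07, with 34, 30 and 25 of 48 lower. For untreated array 1 this is close to the helicase median (-0.21), so the G2/M result also depended on the reference culture.

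The median of p53 targets also lay within the range of the other KD1 arrays. Of 26 measured, 13 were above noise, 8 were lower, 1 was below all 8 and none was above, with a median of -0.05, close to that over all genes. The 1 below all 8 was TIGAR, a regulator of glycolysis (9.29 against 9.38, 9.52 and 9.68). The repair lists were not alike. Of 7 genes of homologous recombination and Fanconi anaemia above noise, 6 were lower and 2 below all 8. Their median was -0.15, close to the lowest of the 8 other arrays (-0.146, TCEA1 siRNA). MRE11, a nuclease of double-strand break repair, was at 7.94 against 8.27, 8.45 and 8.79. Of 8 genes of mismatch and base excision repair, 6 were lower and 1 was above all 8. Their median was -0.18, below the range of the 8 other arrays (-0.09 to 0.14). In this list 3 were below all 8, among them APEX1, the abasic site endonuclease (11.38 against 11.64, 11.73 and 11.86). By contrast, the 3 end joining genes above noise were within the range, with a median of -0.0016. Of 19 interferon-stimulated genes, 1 was above noise, IFI35 (0.28, above all 8).

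**Figure D3:**
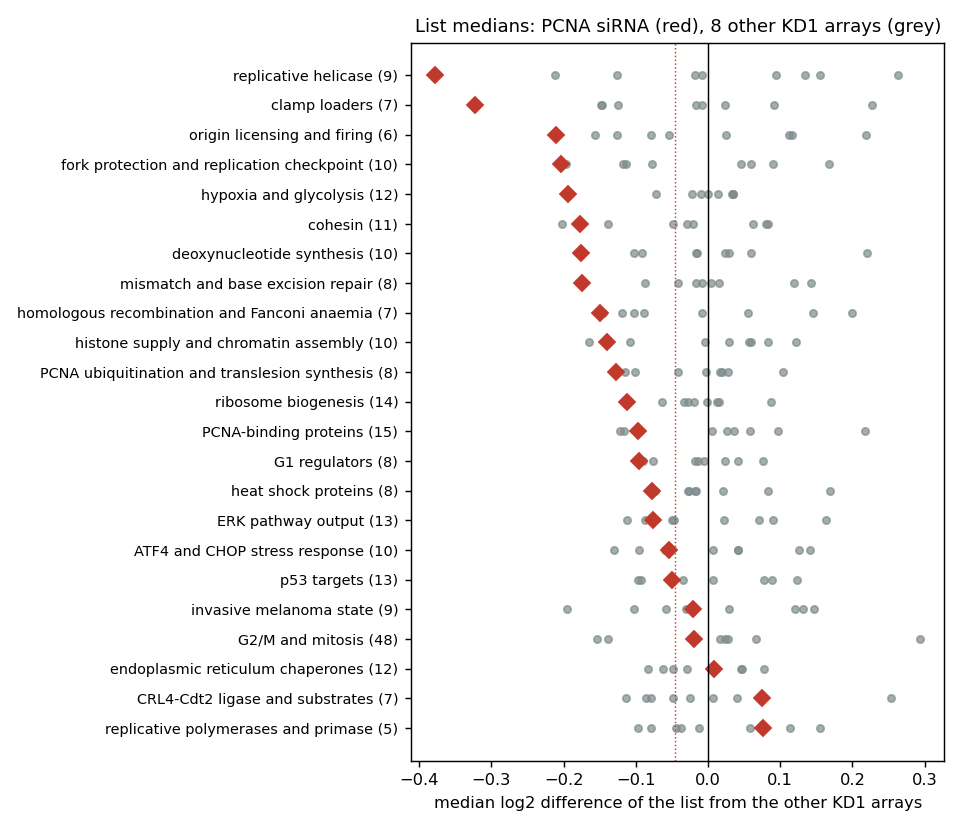
Median log2 difference (x axis) of each gene list with at least 5 genes above noise (y axis, number of genes in brackets) in the PCNA siRNA array (red) and in each of the 8 other KD1 arrays against the other 7 (grey). The dotted line is the median over all genes in the PCNA siRNA array (-0.05). The helicase (-0.38) and clamp loader (-0.32) medians lie farthest below the grey points, and that of G2/M (-0.02) lies among them.

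The largest single differences were mostly outside the cell cycle. After PCNA itself, the 12 largest falls ranged from -1.31 to -0.79, and all 12 were the lowest of the 39 siRNA arrays relative to their batch. These genes were picked for their low values in this array, which favoured that rank, so it is not independent evidence. The same holds for the ranks of DTL, MCM5, MCM6 and CDC25A given above, which were named by size. PCDH9, a protocadherin, was at 6.89 against 7.59, 8.21 and 8.56, but control siRNA array 3 was lower still (6.18). All KD1 values of PCDH9 thus lay under the noise limit (8.59), and its size is that of a dim signal. DCUN1D4, a cofactor of cullin neddylation, was at 7.58 against 8.09, 8.74 and 8.82, and its other probe sets gave -0.65 and -0.72. TGFBR2, the type II receptor for TGF-beta, was at 8.25 against 8.51, 9.29 and 9.50, with -0.79 at a second, dim probe set and 7.85 in control array 3. ITGB1, integrin beta 1, was at 11.29 against 11.77, 12.08 and 12.18, and its other probe sets above noise gave -0.53 and -0.82.

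DEPDC7 (-0.95), C6orf120 (-0.85), ASPH, an aspartyl hydroxylase (-0.85), GMFB, glia maturation factor beta (-0.81), HPS5, which acts in the biogenesis of lysosome-related organelles (-0.80), EDEM3, of glycoprotein degradation in the endoplasmic reticulum (-0.80), and PATL1, an mRNA decay factor (-0.79), completed these 12 together with DTL. In 10 of the 12 genes, all but PCDH9 and TGFBR2, the PCNA siRNA array was also below the 3 control siRNA arrays, a count that the choice of genes favoured too. For ASPH a further probe set above noise gave -0.89 and another -0.16, so that its probe sets did not share 1 size.

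The 12 largest rises ranged from 0.57 to 1.06, and in all 12 the array was above the 3 control siRNA arrays as well. In 8 of the 12 it was the highest of the 39 relative to its batch, the exceptions being SPP1, DKK1, ND6 and IGFBP5. Both counts were likewise favoured by the choice of genes in this array. CTNNB1, which encodes beta-catenin and was itself a target in this batch, was at 10.23 against 8.53 (CTNNB1 siRNA), 9.17 and 9.35, while its control values were 9.11, 9.35 and 9.51. It was the highest of the 39 relative to its batch, but a dimmer probe set of CTNNB1 gave 0.15, within the range. HMGA2, an architectural chromatin protein, was at 11.63 against 10.50, 10.81 and 11.29, and AHR, the aryl hydrocarbon receptor, at 10.29 against 9.42, 9.66 and 9.99. DKK1, a secreted Wnt antagonist, was at 10.79 against 9.47, 9.93 and 10.56, and SPP1, osteopontin, at 9.32 against 7.95, 8.41 and 9.14. ND6 of mitochondrial complex I (0.64), IGFBP5, an IGF-binding protein (0.61), and GSDME, a gasdermin (0.57), were also above all 8.

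The remaining 4 rises, COLCA1 (0.91), GTPBP3 (0.88), CALR (0.80) and SLC25A16 (0.76), came from probe sets whose suffix (x_at) marks probes that match other sequences too. Such probe sets represent 7.21% of the genes above noise other than PCNA and none of the 12 falls. The other probe sets of COLCA1 (-0.22), GTPBP3 (-0.06) and SLC25A16 (-0.31, -0.04 and 0.30) were dim and did not show the same rise. For CALR, calreticulin, a second x_at probe set gave 0.84 and a probe set without the suffix, below noise, gave 0.04.

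**Figure D4:**
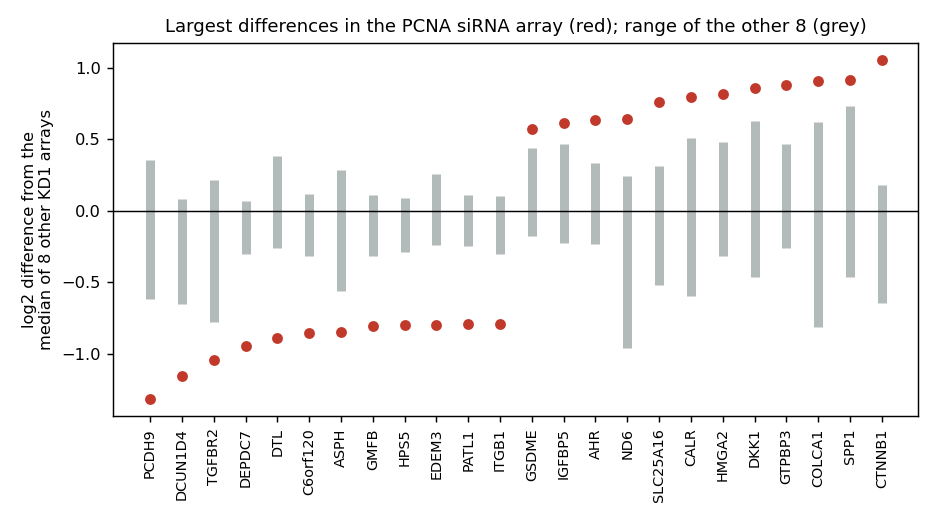
Log2 difference from the median of the 8 other KD1 arrays (y axis) for the 12 largest falls other than PCNA and the 12 largest rises (x axis), among genes outside the range of the 8. Red points are the PCNA siRNA array and grey bars span the 8 others. The falls run from PCDH9 (-1.31) to ITGB1 (-0.79) and the rises from GSDME (0.57) to CTNNB1 (1.06).

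The series holds knockdowns of other parts of the replication machinery, and siRNA against MCM2, a helicase subunit, and CHEK1, the kinase of the replication checkpoint, were set beside PCNA siRNA. Each is again 1 array, and it was compared with the 6 other KD3 arrays for MCM2 and the 22 other KD2 arrays for CHEK1, so that the 3 comparisons share no array. Their own targets were at -1.84 and -1.28. The differences between the 3 knockdowns were not tested, since no siRNA has a replicate. PCNA mRNA was at -0.88 in MCM2 siRNA and -0.01 in CHEK1 siRNA.

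The helicase and clamp loader lists were lower in all 3 arrays. The helicase median was -0.38 in PCNA, -0.34 in MCM2 and -0.28 in CHEK1 siRNA, with 9 of 9 genes lower in each, MCM2 itself included in its own knockdown. The clamp loader median was -0.32, -0.31 and -0.24, and over the 40 replication genes it was -0.23, -0.25 and -0.22. Among the 39 arrays, PCNA siRNA was in position 3 from the lowest for the helicase and for the clamp loaders. The arrays lower than it were neither MCM2 nor CHEK1 siRNA, so low medians of these lists were not confined to these 3 knockdowns. The spread of the list medians within KD2 and KD3 is not given here. DTL was at -0.89, -0.46 and -0.47.

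The lists of mitosis and p53 targets had unlike values in the 3 arrays. In the G2/M list 27 of 48 genes were lower in PCNA siRNA, 47 of 48 in MCM2 siRNA and 48 of 48 in CHEK1 siRNA, with medians of -0.02, -0.40 and -0.26. The p53 target list had medians of -0.05, 0.06 and 0.44, with all 13 genes higher in CHEK1 siRNA. CDKN1A was at 0.18, 0.41 and 2.08. Some of the largest single differences were not particular to PCNA siRNA. DEPDC7 was at -0.95, -0.85 and -0.04, HMGA2 at 0.81, 0.69 and -0.45, and IGFBP5 at 0.61, 0.92 and 0.56. Others went the other way in MCM2 siRNA, among them ASPH (-0.85, 0.54 and 0.07), C6orf120 (-0.85, 0.30 and 0.18) and GTPBP3 (0.88, -0.24 and 0.02). Over all 4800 genes, the differences of PCNA siRNA had a Pearson correlation of 0.18 with those of MCM2 siRNA and 0.05 with those of CHEK1 siRNA (Spearman 0.19 and 0.06). These are correlations across genes of single arrays, and genes are not independent replicates.

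**Figure D5:**
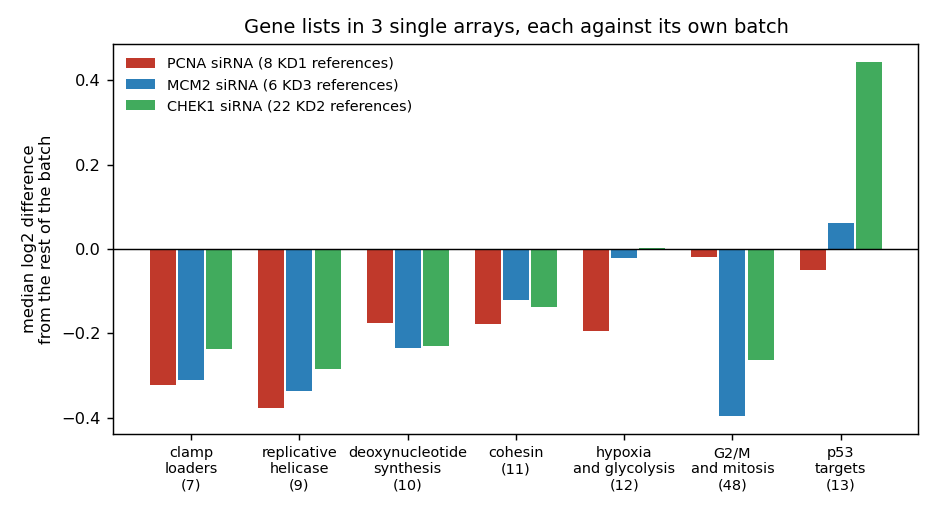
Median log2 difference from the rest of the batch (y axis) for 7 gene lists (x axis, number of genes above noise in brackets) in the arrays of PCNA (red), MCM2 (blue) and CHEK1 (green) siRNA, 1 array each. Clamp loaders and helicase are lower in all 3 (-0.24 to -0.38), G2/M genes in MCM2 (-0.40) and CHEK1 (-0.26) siRNA but not in PCNA siRNA (-0.02), and p53 targets are higher in CHEK1 siRNA (0.44).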

How the data were processed

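The analysis used 45 Affymetrix U133 plus 2.0 arrays of A375 cells. Per the labels, the authors used RMA (version not given in the sources used here). The deposited table holds linear intensities for 54675 probe sets. Their log2 values were used without further normalisation. Array medians lay between 5.06 and 5.15, and arrays have no read depth, so the number of arrays limits the precision. Probe sets with 1 gene name (41097) were used, not those with several (1801) or none (11777). A gene was represented by its brightest probe set, and the noise limit was 8.59. Batches were taken from the study's list of siRNA targets. The PCNA siRNA array was compared with the per-gene median of the 8 other KD1 arrays. With 1 array, there is no test across genes, and only PCNA mRNA was tested (exact rank test).

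The comparison, the 36 gene lists and the rule for named genes were chosen with earlier results of these data known. The rule names, for genes outside the range of the 8, the 12 largest falls and 12 largest rises, and up to 4 members of a list. Scripts (Python 3.11.15, numpy 2.4.6, pandas 2.3.3) were tested on simulated data. Alternatives varied the reference, the probe set, the noise limit, the centring and the fold.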

Additional observations from a re-analysis of the deposited data

How the results depend on the processing

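No paired analysis was possible because each targeting siRNA has a single array and carries no replicate number shared with its reference. PCNA mRNA remained lower under every alternative, from -0.94 (mean of the 3 control siRNA arrays) to -1.43 (median of the 38 other siRNA arrays), and from -1.40 to -1.28 with each KD1 array left out in turn. Its rank, favoured by the selection of siRNAs on this mRNA, gave p = 0.0256 (exact rank test) among 39 arrays each set against its batch, and 0.111 both in KD1 and among all 45 arrays as deposited.

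The counts of genes at least 2-fold lower (4) and higher (1) were the same with each KD1 array left out. They became 23 and 23 against the control siRNA mean, 29 and 39 against the 38 other siRNA arrays, 12 and 22 without a noise limit, 1 and 0 at a noise limit of 3 times BioB (no p-values exist for these counts), and 47 and 11 at 1.5-fold. The count of lower genes became 2 with the median over probe sets. The clamp loader median (-0.32) became -0.47 against the 38 other siRNA arrays and -0.17 with the median over probe sets, and ran from -0.33 to -0.31 with a KD1 array left out. The helicase median (-0.38) became -0.0497 against the control siRNA mean and ran from -0.41 to -0.35 with a KD1 array left out. That of p53 targets became 0.0463 against the control siRNA mean and ran from -0.08 to -0.02, and that of G2/M from -0.04 to 0.02. The count of helicase genes below all other KD1 arrays (7) ran from 7 to 9 with an array left out and became 3 with the median over probe sets and 4 at the higher noise limit. All alternatives for such counts, the left-out arrays included, were chosen after seeing the data.

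Directions changed against the control siRNA mean for the deoxynucleotide synthesis median (0.0162, and 0.025 against the 38 other siRNA arrays), DSCC1 (0.18) and FEN1 (0.0704). With the median over probe sets they changed for PCDH9 (0.0791), ASPH (0.10), ITGB1 (0.11), SLC25A16 (-0.0204), IGFBP5 (-0.14) and GINS2 (0.36), whose further probe sets are mostly dim. The cause was not tested for the other changes. The signal over the noise limit bounds the precision of dim genes.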

Other observations

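Outside the replication lists, genes of hypoxia and glycolysis were lower in the PCNA siRNA array. Of 15 measured, 12 were above noise, 10 were lower than the KD1 median and 7 were below all 8 other KD1 arrays. The list median was -0.19 against -0.07 to 0.04 in the 8, the lowest of the 39 arrays relative to their batches. This list was taken up from 36 with its value known, which favoured that rank, so the rank is not independent evidence. VEGFA, the angiogenic growth factor, was at 8.64 against 8.81, 9.09 and 9.18 (lowest, median and highest of the 8), HK2, a hexokinase, at 8.60 against 8.92, 8.98 and 9.29, and PFKFB4, a regulator of glycolytic flux, at 9.17 against 9.20, 9.59 and 9.72. The median was -0.02 in MCM2 and 0.00 in CHEK1 siRNA. In PCNA siRNA it moved to -0.15 when arrays were centred and to -0.04 when all probe sets of a gene were combined by their median. At a noise limit of 3 times BioB it was -0.05. It was -0.08 against the control siRNA mean and -0.10 against the 38 other siRNA arrays. With a KD1 array left out it ran from -0.24 to -0.15. VEGFA and HK2 were close to the noise limit (8.59) in this array.

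Cohesin genes were lower as well, 10 of 11 above noise, with 6 below all 8 and a median of -0.18, although CDC2 siRNA had a median of -0.20. SMC1A, a core subunit of the ring, was at 10.12 against 10.43, 10.67 and 11.11, and PDS5B, a regulator of its release, at 8.74 against 8.98, 9.23 and 9.35. With the median over probe sets the list median was -0.04. In MCM2 and CHEK1 siRNA the cohesin median was -0.12 and -0.14, with 11 and 10 of the 11 genes lower, so this was not particular to PCNA siRNA. Of 14 genes of ribosome biogenesis above noise, 11 were lower and 7 below all 8, with a median of -0.11, or -0.05 when arrays were centred. The ribosome biogenesis median was -0.14 in MCM2 siRNA (14 of 14 lower) and 0.01 in CHEK1 siRNA (7 of 14 lower).

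The metallothioneins, which bind zinc and copper, were chosen after their values were seen. All 6 above noise (MT1E, MT1F, MT1G, MT1H, MT1X and MT2A) were above all 8 other KD1 arrays, with a median of 0.34, and all 6 were read by x_at probe sets, whose probes match other sequences too. MT1H was at 10.86 against 10.18, 10.34 and 10.64. They belong to a family of closely similar sequences and are not 6 independent values.

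In single genes of other lists, PSAT1 of serine synthesis was at 10.87 against 11.18, 11.34 and 11.63, WNT5A, a Wnt ligand of the invasive melanoma state, at 8.48 against 8.71, 8.97 and 9.20, and DUSP4, an ERK phosphatase, at 11.02 against 10.59, 10.69 and 10.85. The medians of ERK pathway output (-0.08), endoplasmic reticulum chaperones (0.01) and heat shock proteins (-0.08) stayed near that of all genes (-0.05). That of heat shock proteins (-0.077) was still just below the lowest of the 8 other KD1 arrays (-0.074, CDK7 siRNA), with 7 of its 8 genes above noise lower. EDNRB (-0.31) and SOX10 (-0.18) of the melanocyte lineage were below all 8, and MITF (0.06) was not.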
